A study of Mus musculus with 15 samples.

Results

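Organic anion and cation transporter genes, chosen by name but with earlier results of these data known, were examined in the mouse kidney. They were Slc22a6, Slc22a8, Slc22a2, Slc22a12, Slco1a1, Slco1a6, Slc47a1, Abcc2 and Abcc4, which made up 9 of the 13933 genes with an annotated transcript in all 15 deposited files, and 9 of the 12366 genes that passed the filter on low values. The kidneys came from wild-type male C57BL/6 mice, 5 in each of 3 groups. Control mice received saline, Ang II mice received angiotensin II from an osmotic minipump at 500 ng/kg/min, and Ang II + QDG mice received the same infusion together with Qingda granule (QDG), a herbal formula, at 1.145 g/kg/d. Treatment lasted 28 days in each group, and the mice not given QDG were gavaged with water. The comparisons addressed what Ang II infusion changed in the kidney and what QDG changed on top of it. The RNA came from kidney tissue, so that fewer cells of a type and less RNA per cell cannot be told apart.

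These transporters work in the proximal tubule, where drugs, toxins and metabolites are taken from the blood and passed into the urine. On the blood side, Slc22a6 (OAT1) and Slc22a8 (OAT3) take up organic anions in exchange for dicarboxylates, and Slc22a2 (OCT2) takes up organic cations. On the urine side, Slc47a1 (MATE1) releases cations in exchange for protons, Abcc2 (MRP2) and Abcc4 (MRP4) pump out conjugated and other anions with ATP, and Slc22a12 (URAT1) takes urate back from the urine. Slco1a1 (OATP1A1) and Slco1a6 (OATP1A6) are organic anion transporting polypeptides, and Slco1a1 is known as an androgen-dependent gene of the male mouse kidney.

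The deposited values were taken as FPKM, a read count corrected for transcript length and for the size of the library, and were summed over the annotated transcripts of each gene. They implied 68922900 to 81329500 reads or fragments per mouse, with 75034700 to 81329500 in Control, 70697700 to 79292000 in Ang II and 68922900 to 76143500 in Ang II + QDG. Differences were tested with limma on log2(FPKM + 1), fitted to all tested genes, and a gene was called at a Benjamini-Hochberg adjusted p under 0.05. Log2 fold changes are on that scale, which understates the changes of genes with low levels. Renin (Ren1), which Ang II infusion is known to lower, had 33.2 ± 3.79 FPKM (SD, n = 5) in Control against 30.2 ± 8.97 FPKM (SD, n = 5) in Ang II, and its log2 fold change of −0.18 did not pass the test (limma, adjusted p = 0.718). This gene therefore gave no check of the group labels.

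Of the 9 genes, 4 lie on chromosome 19 (GRCm38). Slc22a8 (8591254 to 8611835) and Slc22a6 (8618039 to 8628299) are neighbours on the plus strand, 6204 bases apart. Slc22a12 (6535845 to 6543032, minus strand) and Abcc2 (43782192 to 43840740, plus strand) lie farther away. Slco1a1 (141907282 to 141946962) and Slco1a6 (142085761 to 142208521) lie 138799 bases apart on the minus strand of chromosome 6. Slc22a2 is on chromosome 17 (12584132 to 12628488, plus strand), Slc47a1 on chromosome 11 (61343401 to 61378345, minus strand) and Abcc4 on chromosome 14 (118482692 to 118706219, minus strand).

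The promoter of Slco1a1 is shown, because it was the member that fell after QDG. It is the RefSeq window on GRCm38.p6 from 250 bases before to 50 bases after the start of the gene, read 5′ to 3′ on the gene's strand. Entries were found for 8 of the 9 genes. Both strands were searched for AGGTCA, a nuclear receptor motif, for AGAACA, a steroid receptor motif, and for TATAAA, and capitals mark AGGTCA on either strand.
Slco1a1 (chr6:141946913-141947212, minus strand): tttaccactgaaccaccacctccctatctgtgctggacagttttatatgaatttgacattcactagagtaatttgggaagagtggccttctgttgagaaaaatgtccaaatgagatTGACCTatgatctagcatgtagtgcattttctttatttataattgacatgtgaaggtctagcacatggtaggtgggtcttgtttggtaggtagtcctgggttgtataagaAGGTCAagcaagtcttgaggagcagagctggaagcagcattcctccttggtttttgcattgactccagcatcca
AGGTCA occurs 24 bases before the start of Slco1a1 and, on the opposite strand, 134 bases before it. This motif is also present 49 bases before the start of Abcc2, and 16.3% of the 32851 promoters of the same length hold it. AGAACA was found in a promoter of Abcc4, 123 bases before that start, and in 19.0% of all promoters. TATAAA occurs on the opposite strand of the Slco1a1 window, 209 and 99 bases before the start, and in 13.6% of all promoters.

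The 9 genes differed widely in level. In Control, Slc22a12 was the highest at 680 ± 60.2 FPKM (SD, n = 5), followed by Slc22a6 at 314 ± 34.1 FPKM, and their ranges were separate from each other and from those of all the other members. Slc47a1 at 162 ± 26.6, Slc22a2 at 156 ± 11.3 and Slc22a8 at 139 ± 8.80 FPKM followed, and neighbours in this order overlapped in range. Abcc2 stood alone at 43.0 ± 2.84 FPKM. Abcc4 at 11.1 ± 3.69 and Slco1a1 at 10.8 ± 1.72 FPKM overlapped, and Slco1a6 was the lowest at 4.14 ± 1.12 FPKM. The first and second places and the place of Abcc2 were the same in all 3 groups. Slc22a8, Slc22a2 and Slc47a1 exchanged places, with neighbours in the order overlapping, although in Ang II + QDG all values of Slc22a8 (149 to 182 FPKM) were above those of Slc22a2 (124 to 146 FPKM). In Ang II + QDG the lowest member was Slco1a1, with a range that overlapped that of Slco1a6.

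**Figure D1:**
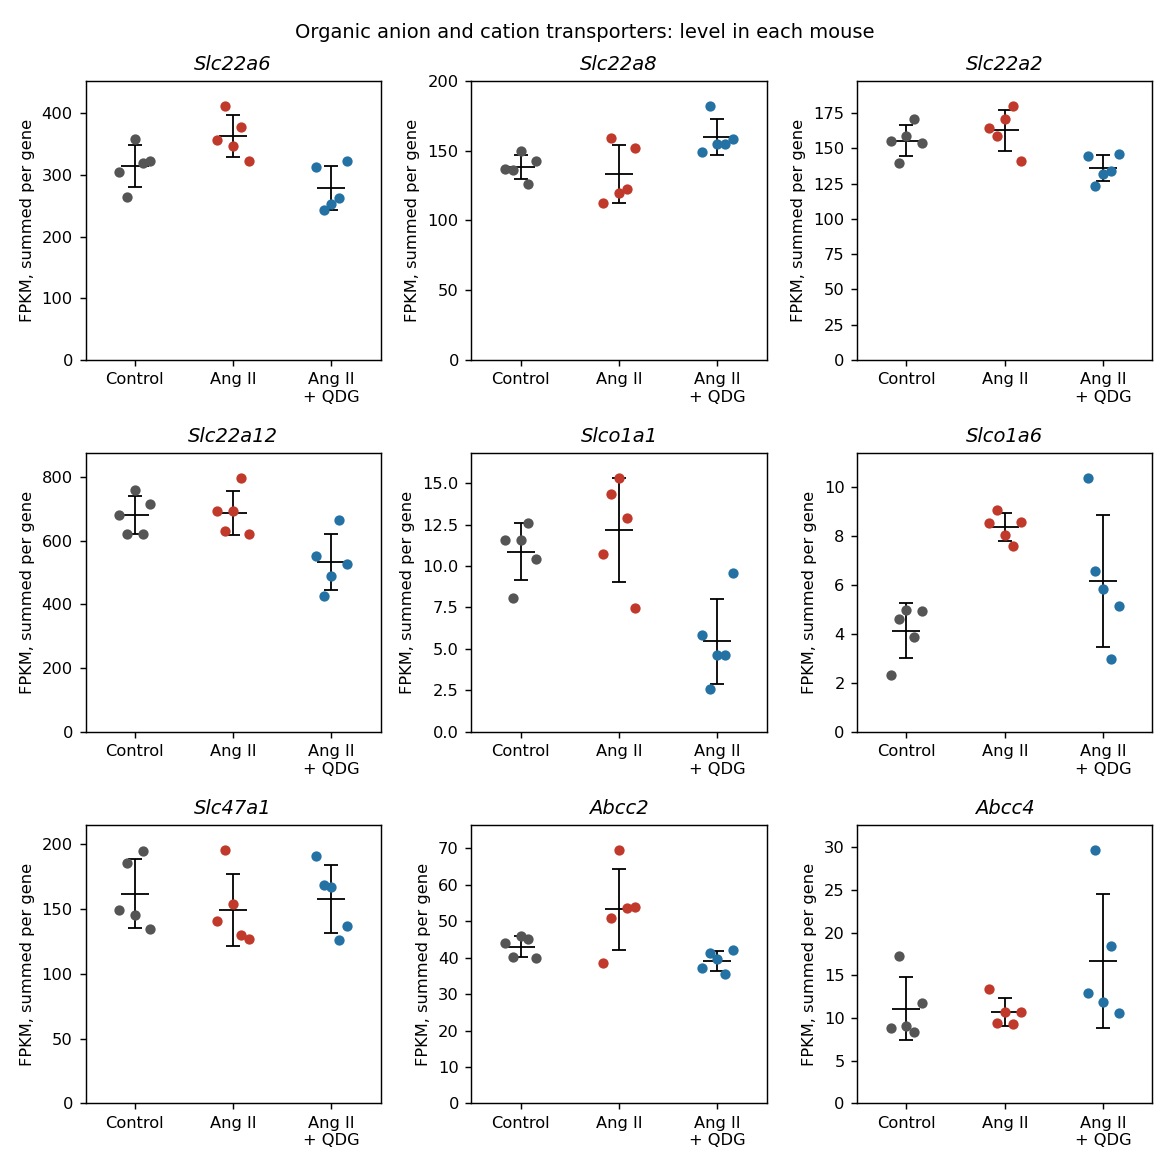
The FPKM of each transporter (y axis, linear, summed per gene) in every mouse of the 3 groups (x axis), with 5 points per group and bars for the mean ± SD. Slco1a6 was higher in all 5 Ang II mice than in all 5 Control mice, and Slco1a1 was lower in 4 of the 5 Ang II + QDG mice than in every Ang II mouse.

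Ang II infusion raised the level of 1 of the 9 transporters, Slco1a6, and none was called lower. Over all genes tested, 5.94% were called in this comparison and 4.95% were called higher. At an unadjusted p under 0.05, 3 members were higher in Ang II (Slc22a6, Slco1a6 and Abcc2) and none lower, where 17.9% of all genes were higher and 4.83% lower. The study's rule, which it used for transcripts, was a fold change of at least 2 with a p under 0.05. Here it was applied to levels summed per gene, with the p taken as unadjusted. With the fold taken between group means of FPKM, 1 member passed, Slco1a6 (2.02-fold), against 2.6% of all genes, and on the FPKM + 1 scale, where its fold was 1.86, no member passed, against 1.04% of all genes. The median log2 fold change of the members was 0.07, beside 0.08 for all genes.

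The level of Slco1a6 was 2.31, 4.60, 4.99, 3.87 and 4.92 FPKM in the Control mice. In the Ang II mice it was 8.55, 9.08, 8.06, 7.59 and 8.6 FPKM. No Ang II mouse overlapped the Control mice, and 6.49% of all genes were separate in this direction. The mean was 4.14 ± 1.12 FPKM (SD, n = 5) in Control against 8.38 ± 0.57 FPKM (SD, n = 5) in Ang II, a log2 fold change of 0.90 (standard error 0.23, limma adjusted p = 0.035). The two-sided exact permutation test gave p = 0.00794, the smallest it allows with 5 mice against 5. The call was lost in 8 of the 10 fits that left out 1 mouse, with adjusted p from 0.0529 to 0.0809 (limma). It held only without Control replicate 2 or without Control replicate 5. It was also lost after quantile normalization or median scaling, with adjusted p of 0.0629 and 0.0642 (limma), and with the most abundant transcript (0.0737). With protein-coding transcripts only, or without retained-intron transcripts, Slco1a6 was below the filter on low values and could not be tested.

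The organic anion uptake transporter Slc22a6 had 305, 263, 358, 319.7 and 323 FPKM in the Control mice and 357, 411, 347, 377 and 322 FPKM in the Ang II mice. The groups overlapped, with 4 of the 5 Ang II mice above all Control mice except the highest. Its log2 fold change was 0.21 (standard error 0.098, limma adjusted p = 0.219), with an interval from 0.00 to 0.42. Abcc2, the pump for conjugated anions, had 44.1, 40.1, 45.9, 45.2 and 39.9 FPKM in the Control mice and 38.5, 50.8, 69.6, 53.7 and 54.0 FPKM in the Ang II mice. All Ang II mice but replicate 1 were above all Control mice. Its log2 fold change was 0.28 (standard error 0.12, limma adjusted p = 0.164), and without Ang II replicate 1 it was 0.39 and passed the test (adjusted p = 0.0319, limma). The direction turned to −0.04 without retained-intron transcripts (adjusted p = 0.881, limma), to the same value with protein-coding transcripts only or the most abundant transcript, and to −0.0081 when transcripts were weighted by length (adjusted p = 0.977, limma).

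The remaining 6 transporters had estimates between −0.12 and 0.13 in Ang II compared with Control, and every one overlapped between the groups. For the cation transporter Slc22a2, the interval of the log2 fold change was −0.09 to 0.22, for Slc22a8 −0.27 to 0.13 and for Slc22a12 −0.21 to 0.24. The intervals of Slco1a1 (−0.40 to 0.66), Abcc4 (−0.54 to 0.53) and Slc47a1 (−0.43 to 0.19) were wider.

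**Figure D2:**
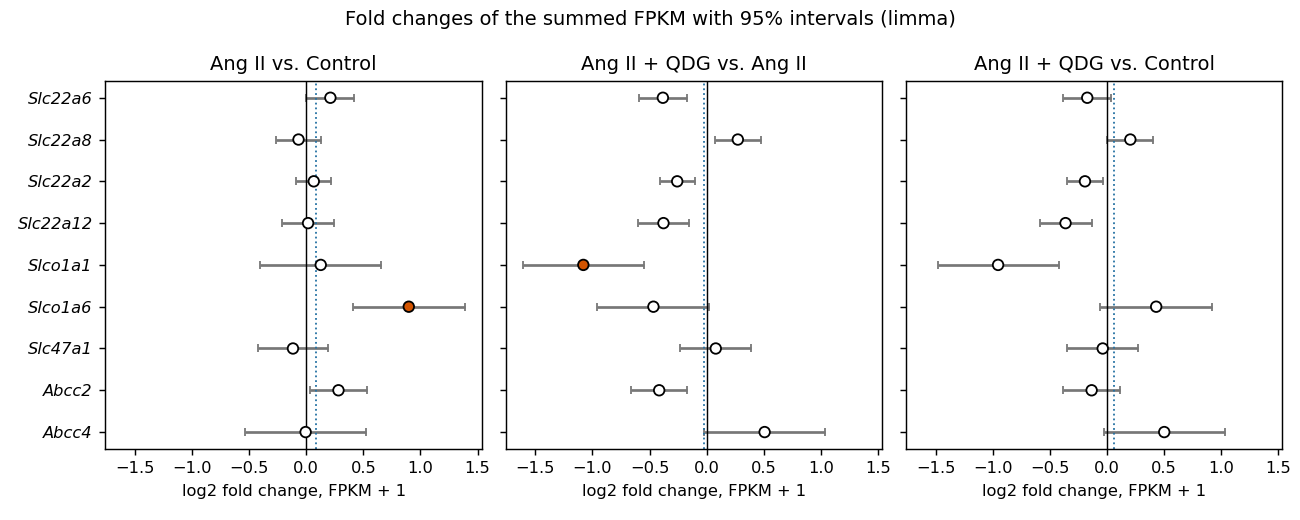
Log2 fold changes on the FPKM + 1 scale (x axis) of the 9 transporters (y axis) in 3 comparisons, with 95% intervals. Filled points passed an adjusted p under 0.05 (limma), namely Slco1a6 in Ang II vs. Control and Slco1a1 in Ang II + QDG vs. Ang II, and the dotted line is the median of all genes.

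QDG lowered 1 of the 9 transporters relative to Ang II alone, Slco1a1, and none was called higher. Over all genes tested, 1.81% were called in this comparison and 1.29% were called lower. At an unadjusted p under 0.05, 5 members were lower (Slc22a6, Slc22a2, Slc22a12, Slco1a1 and Abcc2) and Slc22a8 was higher, where 10.4% of all genes were lower and 6.02% higher. The median log2 fold change of the members was −0.38, beside −0.02 for all genes. By the study's rule 1 member passed, Slco1a1, both on the FPKM + 1 scale, against 0.817% of all genes, and between group means of FPKM, against 1.51%. No member was separate between these groups, compared with 5% of all genes. This comparison shares its Ang II mice with the comparison above, so they are not independent.

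Slco1a1 had 10.8, 14.4, 15.3, 12.9 and 7.44 FPKM in the Ang II mice. In the Ang II + QDG mice it had 5.83, 2.56, 4.65, 4.65 and 9.56 FPKM. The groups overlapped through Ang II replicate 5 and Ang II + QDG replicate 5. The Control mice had 11.6, 8.09, 11.6, 12.6 and 10.4 FPKM, so that the lowest 4 of the 15 values were all from Ang II + QDG mice. The mean fell from 12.2 ± 3.15 FPKM (SD, n = 5) to 5.45 ± 2.58 FPKM (SD, n = 5), a log2 fold change of −1.08 (standard error 0.25, limma adjusted p = 0.0424). The call was lost in 8 of the 10 fits that left out 1 mouse, with adjusted p from 0.051 to 0.103 (limma). It held only without replicate 5 of either group. It was also lost after quantile normalization (adjusted p = 0.0547, limma), with array weights (0.0585), in a fit of only these 10 mice (0.106) and, at a log2 fold change of −0.51, without retained-intron transcripts (0.438).

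The uptake transporters on the blood side went in different directions in their estimates. Slc22a6 had 313, 243, 253, 263 and 323 FPKM in the Ang II + QDG mice, and only replicate 5 of these exceeded the lowest Ang II mouse. Its log2 fold change from Ang II was −0.38 (standard error 0.098, limma adjusted p = 0.0649). Its neighbour Slc22a8 had 113, 159, 119.6, 122 and 152 FPKM in the Ang II mice and 149, 182, 155, 155 and 159 FPKM in the Ang II + QDG mice. Of the Ang II mice, 3 were below all Ang II + QDG mice, and replicates 2 and 5 were inside their range. The log2 fold change of Slc22a8 was 0.27 (standard error 0.093, limma adjusted p = 0.153).

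Slc22a2, which takes up organic cations, had 165, 159, 171, 179.9 and 141 FPKM in the Ang II mice and 144, 124, 132, 134 and 146 FPKM in the Ang II + QDG mice. All Ang II + QDG mice were below all Ang II mice except Ang II replicate 5. The estimate was a log2 fold change of −0.26 (standard error 0.072, limma adjusted p = 0.0813). The efflux partner for cations, Slc47a1, ranged from 127 to 196 FPKM in the Ang II mice and from 126 to 191 FPKM in the Ang II + QDG mice. These ranges nearly coincided, and the interval of its log2 fold change was −0.23 to 0.39.

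The urate transporter Slc22a12 had 694, 632, 694, 797 and 623 FPKM in the Ang II mice and 554, 427, 489.9, 666 and 528 FPKM in the Ang II + QDG mice. Only replicate 4 of the Ang II + QDG mice was inside the range of the Ang II mice. The log2 fold change was −0.38 (standard error 0.11, limma adjusted p = 0.0826). Abcc2 had 37.1, 41.3, 39.6, 35.6 and 42.0 FPKM in the Ang II + QDG mice, and Ang II replicate 1 was again the mouse that made the groups overlap. Its log2 fold change was −0.42 (standard error 0.12, limma adjusted p = 0.081), and −0.52 without that mouse (adjusted p = 0.0246, limma). Without retained-intron transcripts it was −0.18 (adjusted p = 0.406, limma). Abcc4, which exports organic anions and cyclic nucleotides, had 13.0, 29.7, 11.9, 18.5 and 10.6 FPKM in the Ang II + QDG mice and 9.34 to 13.5 FPKM in the Ang II mice. Ang II + QDG replicates 2 and 4 were above every Ang II mouse, and the log2 fold change of 0.51 did not pass the test (limma adjusted p = 0.328).

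Slco1a6 in the Ang II + QDG mice was 10.4, 6.58, 5.82, 2.96 and 5.14 FPKM. These values spread from within the Control range to above the highest Ang II mouse. The log2 fold change from Ang II was −0.47 (standard error 0.23, limma adjusted p = 0.332).

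Compared with Control, the Ang II + QDG mice had no transporter that was called by limma, where 0.129% of all genes were called. At an unadjusted p under 0.05 there were 4 members, Slc22a8 with a higher level and Slc22a2, Slc22a12 and Slco1a1 with lower levels, beside 10.7% of all genes higher and 3.72% lower. The exact permutation test gave an unadjusted p under 0.05 for the same 4 genes, but it was run on the members alone and has no share of all genes to be read against. Among these 4, Slco1a1 had the largest estimate in size at −0.95 (standard error 0.25, limma adjusted p = 0.119), followed by Slc22a12 at −0.36 (standard error 0.11, limma adjusted p = 0.148). The mean of Slc22a6 in Ang II + QDG was 279 ± 36.3 FPKM (SD, n = 5), with a log2 fold change from Control of −0.17 and an interval of −0.38 to 0.04.

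The levels of some transporters came from transcripts annotated as retained introns, in which intron sequence is kept in the RNA. The labels describe removal of ribosomal RNA only, while the study's methods also name a poly(A) isolation step, and the part of library preparation in the shares of these transcripts was not tested. For Slco1a6, 81.7% of the level in Control, 91.6% in Ang II mice and 80.7% in Ang II + QDG mice belonged to Slco1a6-202 (ENSMUST00000172984), an RNA of 1184 bases and 8 exons that ends 100 bases inside intron 8 of the coding transcript. A part of Abcc2 belonged to Abcc2-204 (ENSMUST00000143553), 566 bases with 2 exons, which ends 284 bases inside intron 2. Slco1a1-203 (ENSMUST00000171651) keeps the whole of intron 7, 1028 bases, and ends 192 bases inside intron 9. The exon to intron junctions at which these RNAs leave the spliced form are shown, because the calls in Slco1a6 and Slco1a1 turned on them. Each has 25 bases on either side of the junction, read 5′ to 3′ from the GENCODE transcripts on GRCm38, with the first 6 intron bases in capitals.
Abcc2 intron 2 (chr19:43784332-43784381, plus strand): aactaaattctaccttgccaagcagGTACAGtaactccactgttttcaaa
Slco1a1 intron 7 (chr6:141925504-141925553, minus strand): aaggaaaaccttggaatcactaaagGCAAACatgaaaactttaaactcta
Slco1a1 intron 9 (chr6:141922941-141922990, minus strand): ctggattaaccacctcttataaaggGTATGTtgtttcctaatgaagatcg
Slco1a6 intron 8 (chr6:142109282-142109331, minus strand): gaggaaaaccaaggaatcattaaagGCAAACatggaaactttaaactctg
The junctions of Slco1a1 intron 7 and Slco1a6 intron 8 are identical at 44 of 50 bases. Both of these introns begin with GC, and the introns of Abcc2 and Slco1a1 intron 9 begin with GT, the usual start of an intron. Windows of 50 bases were searched for in the other members and in Slco1a4, Slco1a5 and Slco1b2, and in no other gene. Of the windows in Slco1a6-202, 7.05% also occur in another of these genes, compared with 3.17% in Slco1a1-203 and 0 in Abcc2-204. Reads of the 2 Slco1a genes could thus have been divided in part with another gene by the authors' counting. Which gene shares each window was not examined, and sharing with genes outside the search is unknown. Slco1a6 also overlaps Gm18159 and Gm20400 on the opposite strand, which reached at most 2.01 and 1.90 FPKM in any mouse, and Slc22a12 overlaps Nrxn2, at most 4.28 FPKM. The counting is not stated to use strand, so reads of these overlapping genes could not be told apart.

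Slco1a6-202 had 1.49, 4.0, 4.32, 3.41 and 4.05 FPKM in the Control mice and 7.99, 8.14, 7.47, 6.94 and 7.78 FPKM in the Ang II mice. The groups were separate, as they were for 5.37% of all transcripts tested. Its log2 fold change was 1.01 (standard error 0.29), which did not pass the test across all transcripts (limma adjusted p = 0.104). The coding Slco1a6-201 had 0.684 ± 0.166 FPKM (SD, n = 5) in Control, 0.71 ± 0.166 FPKM (SD, n = 5) in Ang II and, with QDG added, 0.993 ± 0.232 FPKM (SD, n = 5). It was below the filter on low values, and its level rested on 106 to 271 reads per mouse as implied by the FPKM.

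Abcc2-204 had 3.65, 7.24, 2.97, 4.34 and 4.57 FPKM in the Control mice and 7.35, 14.2, 23.6, 13.8 and 19.5 FPKM in the Ang II mice. All Ang II mice were above all Control mice, replicate 1 by the least. The log2 fold change was 1.54 (standard error 0.35, limma adjusted p = 0.0582). In the Ang II + QDG mice the level was 6.90, 7.19, 6.13, 2.12 and 11.0 FPKM, a log2 fold change from Ang II of −1.16 (standard error 0.35, limma adjusted p = 0.205). The share of Abcc2-204 in the summed level was 10.8% in Control, 28.6% in Ang II mice and 16.7% in Ang II + QDG mice. The coding Abcc2-201 had 37.0 ± 4.28 FPKM (SD, n = 5) in Control against 36.1 ± 5.50 FPKM (SD, n = 5) in Ang II, with a log2 fold change of −0.04 (limma adjusted p = 0.908), and its log2 fold change from Ang II to Ang II + QDG was −0.18 (limma adjusted p = 0.552).

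Slco1a1-203 had 2.10, 11.1, 7.43, 6.86 and 5.48 FPKM in the Ang II mice and 2.52, 0.394, 1.28, 2.31 and 4.09 FPKM in the Ang II + QDG mice. All Ang II mice but replicate 1 were above every Ang II + QDG mouse. This gave a log2 fold change of −1.28 (standard error 0.41, limma adjusted p = 0.225). The coding Slco1a1-201 had 5.34 ± 1.02 FPKM (SD, n = 5) in Control, 4.04 ± 1.80 FPKM (SD, n = 5) in Ang II and, with QDG added, 2.99 ± 0.709 FPKM (SD, n = 5). Its Ang II + QDG mice were all below the Control mice, where 2.38% of all transcripts were separate in either direction, with a log2 fold change of −0.67 (standard error 0.23, limma adjusted p = 0.351), while against Ang II the log2 fold change was −0.28 (limma adjusted p = 0.687).

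**Figure D3:**
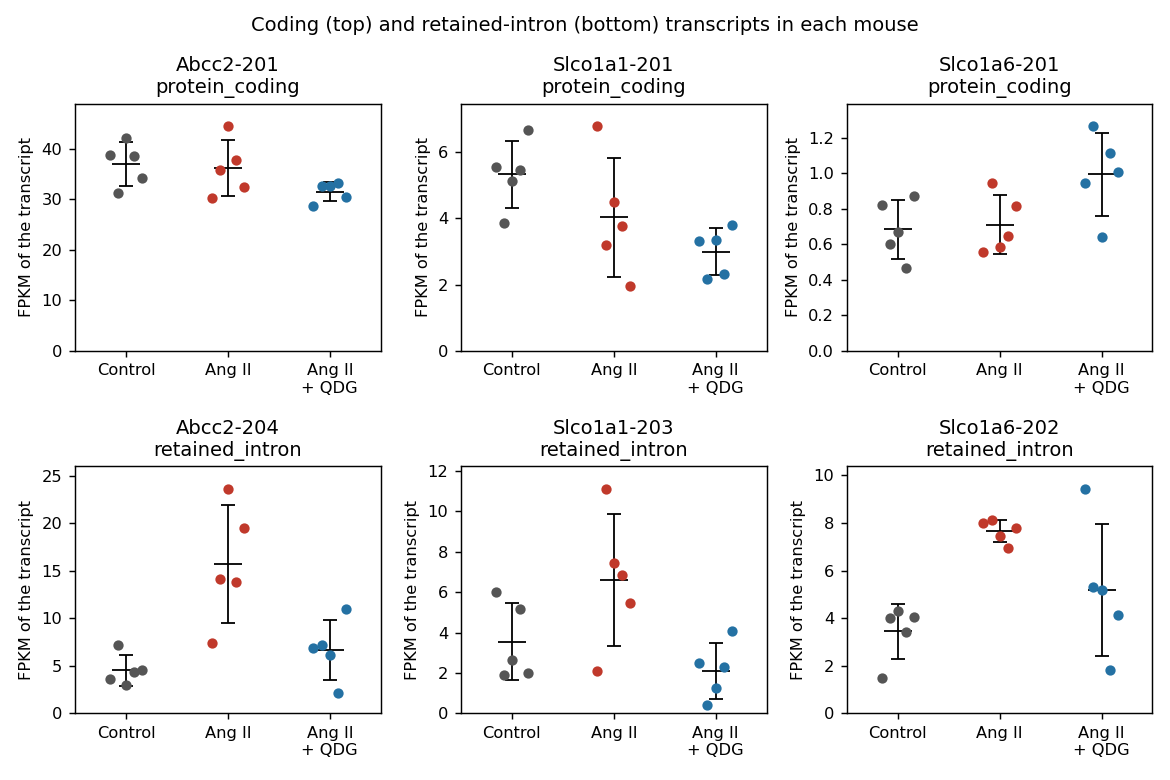
FPKM (y axis, linear) of a coding transcript (top row, Slco1a1-201 for Slco1a1) and a retained-intron transcript (bottom row) of Abcc2, Slco1a1 and Slco1a6 in each mouse of the 3 groups (x axis), with bars for the mean ± SD of 5 mice. Abcc2-204 and Slco1a6-202 were higher in every Ang II mouse than in every Control mouse, while Abcc2-201 and Slco1a6-201 overlapped.

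No transcript of any member had an adjusted p under 0.05 in any comparison, where 0.691% of all transcripts were called in Ang II vs. Control, 0.0972% in Ang II + QDG vs. Ang II and 0.0243% against Control. At an unadjusted p under 0.05 there were 2, 5 and 4 of the 17 member transcripts tested in these comparisons, beside 15.9%, 11.3% and 10% of all transcripts. Across the kidney transcriptome, estimates of retained-intron transcripts lay mostly above 0 in Ang II. Among the 2757 tested, the median log2 fold change from Control was 0.30 and 79.1% were above 0, beside a median of 0.06 and 58.6% above 0 for the 15250 protein-coding transcripts. From Ang II to Ang II + QDG the median was −0.13 for retained-intron transcripts, with 33.5% above 0, and −0.01 for protein-coding ones. These values moved with those of Slco1a6-202 and Abcc2-204, and their part in the results for these genes was not tested.

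The other members rested on other transcripts. Slc22a6, Slc22a8 and Slc22a2 had deposited values for 1 transcript each, a coding one. Slc22a8 and Slc22a2 have further annotated transcripts, which had no deposited value. For Slc47a1, 94.0 to 95.5% of the mean level in each group came from Slc47a1-202 (ENSMUST00000131723), annotated as subject to nonsense-mediated decay. The coding Slc47a1-201 (ENSMUST00000010267) had no deposited value in any mouse. Its part in the level of Slc47a1 is therefore not known, and the share of Slc47a1-202 is among the listed transcripts only. Slc22a12 was divided among 3 transcripts in shares that differed widely between mice. Its Slc22a12-201 ranged from 24.0% to 74.1% of the summed level within the Ang II group, while the sum itself stayed between 623 and 797 FPKM. For Abcc4, 91.5 to 94.3% of the mean level belonged to the coding Abcc4-201.

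Within the groups, some transporters varied together from mouse to mouse. Taking each mouse's deviation from its group mean on the log2 scale, Slc22a6, Slc22a2 and Slco1a1 had Pearson's r of 0.69 to 0.81 with each other over the 15 mice, and r of −0.62 to −0.76 with Abcc4. Of the 36 pairs, 3 had r above 0.5 and 5 had r below −0.5. These are descriptions, since the values of a pair come from the same library. Control replicate 2 and Ang II + QDG replicate 2 showed the pattern most clearly. Each was the lowest of its group in Slc22a6, Slc22a2, Slc22a12 and Slco1a1 and the highest in Abcc4. Their implied totals were 81295900 and 76143500, and the summed thick ascending limb markers were 1431 FPKM in the first, the highest of its group, and 1537 FPKM in the second, where the group ranged from 1206 to 1626. Without Ang II + QDG replicate 2, the log2 fold change of Slco1a1 from Ang II was −0.89 (limma adjusted p = 0.0907). Ang II replicate 5 was likewise the lowest of its group in these 4 genes and in Slc47a1, and its summed thick ascending limb markers were 892.9 FPKM, where the group ranged from 776 to 1294.

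**Figure D4:**
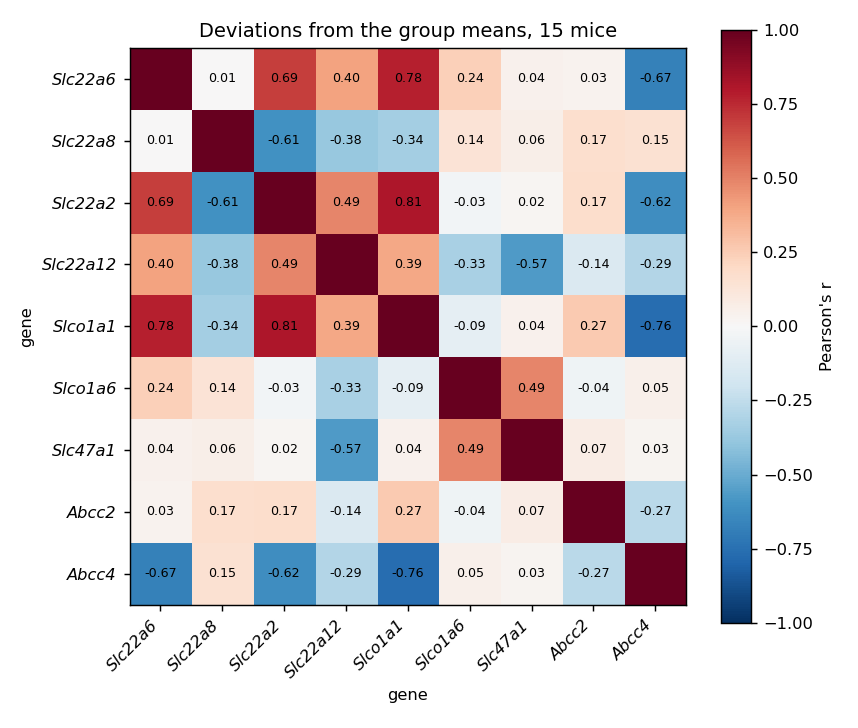
Pearson's r between the transporters' deviations from their group means, log2 scale, over 15 mice, with genes on both axes and r printed in each cell and given by the colour bar. Slc22a6, Slc22a2 and Slco1a1 were positively correlated, from 0.69 to 0.81, and each was negatively correlated with Abcc4.

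The genes whose pattern was most like that of a member, out of 12366 compared over the 15 mice, included Ggt1, a brush border enzyme of the proximal tubule. Ggt1 ranked first for Slc22a2 (Pearson's r = 0.91, Spearman's rho = 0.93) and for Slco1a1 (r = 0.91, rho = 0.89), and second for Slc22a6 (r = 0.87, rho = 0.85). Slc22a2 and Slco1a1 were among each other's top 3 (r = 0.91, rho = 0.92). The first-ranked genes were Psmd2 for Slc22a6 (r = 0.87, rho = 0.85), Xpo6 for Slc22a8 (r = 0.85, rho = 0.75) and Srp19 for Slc22a12 (r = 0.89, rho = 0.83). For Slco1a6 it was Gmip (r = 0.88, rho = 0.92), and for Slc47a1 it was Gm13436 (r = 0.76, rho = 0.78). Ttpa was first for Abcc2 (r = 0.88, rho = 0.80) and Abcc9 for Abcc4 (r = 0.85, rho = 0.83).

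On 4 lists of related transporters and partners, 36 genes were tested. In Ang II vs. Control 1 of them (2.78%) was called, beside 5.94% of all genes, in Ang II + QDG vs. Ang II also 1 (2.78%), beside 1.81%, and in Ang II + QDG vs. Control 0, beside 0.129% (limma). In Ang II vs. Control, 2.78% were higher and 5.56% lower at an unadjusted p under 0.05, where 17.9% and 4.83% of all genes were. By the same measure, 11.1% were higher and 5.56% lower in Ang II + QDG vs. Ang II, beside 6.02% and 10.4% of all genes. In Ang II + QDG vs. Control, 16.7% were higher and 11.1% lower, beside 10.7% and 3.72%. Of 15 other Slc22 genes tested, none was called in any comparison (limma). At an unadjusted p under 0.05, 1 of them was lower in Ang II than in Control, 2 were higher and 1 lower after QDG than in Ang II alone, and 1 was higher and 1 lower in Ang II + QDG than in Control. The smallest p in Ang II vs. Control was that of Slc22a18 (351 ± 20.8 FPKM in Control and 315 ± 19.4 in Ang II, SD, n = 5), with a log2 fold change of −0.16 (limma adjusted p = 0.116). In Ang II + QDG vs. Ang II it was that of Slc22a5, the carnitine transporter OCTN2. Its mean was 91.5 ± 9.90 FPKM (SD, n = 5) in Ang II and, with QDG added, 117 ± 6.85 FPKM (SD, n = 5), the groups did not overlap, and the log2 fold change was 0.35 (limma adjusted p = 0.0708). Against Control, the smallest p in Ang II + QDG was that of Slc22a28, with a log2 fold change of −0.63 (limma adjusted p = 0.182).

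Among 5 other Slco genes tested, Slco3a1, a widely expressed transporter of the same family, was called lower after QDG. Its mean fell from 54.5 ± 5.15 FPKM (SD, n = 5) in Ang II to 34.5 ± 7.07 FPKM (SD, n = 5) in Ang II + QDG, with a log2 fold change of −0.67 (standard error 0.12, limma adjusted p = 0.0172). The ranges, 49.3 to 61.9 and 26.7 to 43.0 FPKM, were separate. The other 4 Slco genes had estimates above 0 in that comparison.

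Of 7 other efflux pumps tested, Abcg2, which exports urate into the urine, was called lower in Ang II. Its mean fell from 246 ± 20.8 FPKM (SD, n = 5) in Control to 207 ± 7.49 FPKM (SD, n = 5), a log2 fold change of −0.25 (standard error 0.063, limma adjusted p = 0.0359), with overlapping ranges. In Ang II + QDG it was 201 ± 13.4 FPKM (SD, n = 5), with a log2 fold change from Ang II of −0.04 (limma adjusted p = 0.789). The smallest p after QDG was that of Abcb1a, a multidrug pump, at 2.11 ± 0.476 FPKM (SD, n = 5) in Ang II and, with QDG added, 3.46 ± 0.604 FPKM (SD, n = 5) (limma adjusted p = 0.0789).

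None of the 9 urate and anion partners, among them the sodium-dicarboxylate cotransporters and the scaffold Pdzk1, was called in any comparison (limma). At an unadjusted p under 0.05 there was 1 in Ang II + QDG vs. Ang II, Slc2a9, a urate transporter, with a log2 fold change of 0.33 (limma adjusted p = 0.21). The smallest p in both comparisons with Control was that of Slc17a1, a phosphate and anion transporter of the brush border, with log2 fold changes of −0.19 in Ang II (limma adjusted p = 0.232) and −0.31 in Ang II + QDG (limma adjusted p = 0.153). It was the only partner with an unadjusted p under 0.05 against Control, in Ang II + QDG.

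**Figure D5:**
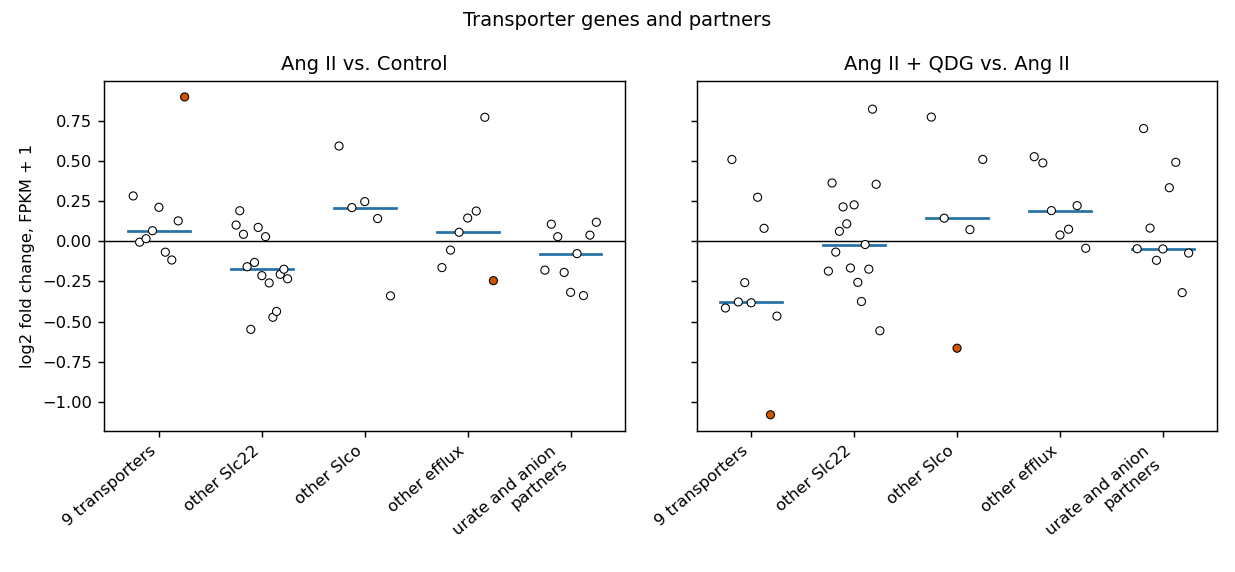
Log2 fold changes on the FPKM + 1 scale (y axis) of the 9 transporters and of 4 lists of related genes (x axis) for Ang II vs. Control on the left and for QDG added to Ang II on the right, with 1 point per gene and a line at the median of each list. Filled points passed an adjusted p under 0.05 (limma), namely Slco1a6 and Abcg2 on the left and Slco1a1 and Slco3a1 on the right.

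Markers of cell types were set beside these results. Of 12 proximal tubule markers, none was called in any comparison (limma). At an unadjusted p under 0.05, 1 was higher and 2 were lower in Ang II vs. Control, beside 17.9% and 4.83% of all genes. After QDG against Ang II, 1 was higher and 1 lower, beside 6.02% and 10.4%. After QDG against Control, 1 was lower, beside 3.72%. The summed level of the proximal tubule markers was 5297 to 6114 FPKM in Control, 5493 to 6521 in Ang II and 5442 to 6396 in Ang II + QDG. The largest parts of this sum had opposite estimates in Ang II vs. Control. Slc34a1 had a mean of 2019 FPKM in Control and 2500 in Ang II, and Slc27a2 had 1263 and 1017. The sum alone therefore does not show that the markers were unchanged. Among the other segments, 4 of 4 thick ascending limb markers had higher levels with QDG added to Ang II at an unadjusted p under 0.05. This held for 6.02% of all genes, and none of the 4 markers was called by limma. Their sums were 1058 to 1431 FPKM in Control, 776 to 1294 in Ang II and 1206 to 1626 in Ang II + QDG. The 5 erythroid markers summed to 545 to 1362, 1115 to 1943 and 1557 to 2818 FPKM in these groups, and Hba-a1 was called higher in Ang II + QDG than in Control. In Ang II, the podocyte marker Podxl, Slc26a4 of 5 collecting duct markers, Ehd3 of 5 endothelial markers and Tagln of 3 smooth muscle markers were called higher than in Control (limma). Apob, on the list of 4 hepatocyte markers, was called lower. No gene was called in any comparison on the lists of distal convoluted tubule, leukocyte, adipose, urothelium and tubular injury markers (limma). At an unadjusted p under 0.05 there were only distal convoluted tubule markers. These were 2 higher in Ang II vs. Control, beside 17.9% of all genes, and 1 lower after QDG against Ang II, beside 10.4%. Of 4 sex-linked genes tested, 0 were called and 0 had an unadjusted p under 0.05 in any comparison (limma). The part of these changes in the transporter results was not tested.

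Among 6 androgen-responsive kidney genes, Odc1, which makes polyamines, was called lower after QDG, as Slco1a1 was. Its mean was 359 ± 124 FPKM (SD, n = 5) in Control, 562 ± 110 FPKM (SD, n = 5) in Ang II and, with QDG added, 229.8 ± 55.9 FPKM (SD, n = 5). The log2 fold change from Ang II was −1.30 (standard error 0.26, limma adjusted p = 0.0255), and the ranges of the 2 groups were separate. Of the other 5 genes, only Kap had an unadjusted p under 0.05 in that comparison, with a log2 fold change of 1.39 (limma adjusted p = 0.134). None of the 6 genes was called in the comparisons with Control (limma). In Ang II vs. Control, Odc1 was higher at an unadjusted p under 0.05, with a log2 fold change of 0.71 (limma adjusted p = 0.12), and Kap was lower, at −1.12 (limma adjusted p = 0.159). In Ang II + QDG vs. Control, 3 genes were lower at an unadjusted p under 0.05, namely Acsm3 at −0.84 (limma adjusted p = 0.209), Odc1 at −0.59 (limma adjusted p = 0.315) and Cyp4b1 at −0.35 (limma adjusted p = 0.284).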

How the data were processed

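RNA-seq was performed on kidney tissue of 15 mice, 5 per group, and the groups were taken from the labels. Per the labels, libraries were made after removal of ribosomal RNA, and the study's methods also name a poly(A) isolation step. The submitters' processing notes name the mm10 genome and limma, and the aligner and annotation are not given in the sources used here. The authors deposited 1 table per mouse with 1 value per transcript, with no unit named. The deposited values behaved as FPKM: within a mouse, 1 scale factor times the transcript length turned 98.4 to 98.7% of the values under 200 reads into whole numbers (tolerance 0.05). That factor gave the implied totals, and intervals from reads were not used, since they would cover counting error only. The Control files list 41477 transcripts and the others 42310, and 40054 were shared. Of these, 11141 were assembled by the authors and carry no gene name. They held 9.57 to 11.9% of the FPKM and were left out of the sums.

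Over all the files together, 31301 Ensembl transcripts were listed, and 31244 of them matched GENCODE release M21 (GRCm38). Of the matched transcripts, those shared by all files were summed per gene. A gene was tested where 5 or more mice reached 1 FPKM (12366 genes, and 28812 transcripts in the test of single transcripts) with limma (version 3.58.1, R 4.3.3) on log2(FPKM + 1) with a mean-variance trend, fitting the 3 groups together with 12 residual degrees of freedom and Benjamini-Hochberg adjustment over all features. The p-values measure the spread between mice. The two-sided exact permutation test was run on the members. Some genes on the lists and the list of regulators are not reported here, and a list of adrenal markers was not analysed here. The script was tested on simulated data with known changes. Replicates were numbered in accession order, and the numbers pair no samples. The members were fixed by name, and the 9 members and all gene lists were chosen with earlier results of these data known. All members were named, with the genes called on the other lists or, where none was called, the gene with the smallest p, and the 3 genes most correlated with each member were examined. Other choices of scaling, pseudocount, filter, transcripts and mice were tried. Promoters came from RefSeq (GRCm38.p6), with an entry for 8 of the 9 members.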

Additional observations from a re-analysis of the deposited data

How the results depend on the processing

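The results for the 9 transporters were recomputed under 24 alternatives in each comparison (22 for Slco1a6, whose coding transcript was below the filter on low values). Of the 642 values, 583 kept their direction and their side of the threshold, 31 changed sign, 26 lost a call and 2 gained a call. In Ang II vs. Control the number of members called was 1, and it was 0 after quantile normalization, after median scaling, with protein-coding transcripts only, with the most abundant transcript of each gene and without retained-intron transcripts. In Ang II + QDG vs. Ang II it was also 1, and 0 under the same 5 settings, with array weights and in a fit of only the 10 mice compared. The two-sided exact permutation test on its own, with unadjusted p, gave 5 members in that comparison and 4 in Ang II + QDG vs. Control, where limma called 0. It was run on the members alone, so these counts have no share of all genes beside them. Leaving out 1 mouse at a time gave 0 to 1 members in both comparisons with Ang II, and 0 to 0 in Ang II + QDG vs. Control. Without Ang II replicate 1, the member called in each comparison with Ang II was Abcc2. Leaving out retained-intron transcripts and weighting the sum by transcript length were chosen after seeing the data, as were testing each transcript on its own and taking the fold between group means of FPKM.

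The signs that changed belonged to estimates that never passed the test in either direction, apart from Abcc2. In Ang II vs. Control, quantile normalization gave −0.022 for Slc22a2, and median scaling gave −0.025 for Slc22a2 and −0.075 for Slc22a12. Scaling to nuclear transcripts gave −0.00040 for Slc22a12. Protein-coding transcripts only gave −0.12 for Slc22a12, −0.46 for Slco1a1, 0.090 for Slc47a1, −0.037 for Abcc2 and 0.020 for Abcc4, and −0.19 for Slc47a1 in Ang II + QDG vs. Ang II. The most abundant transcript gave −0.27 for Slc22a12, −0.39 for Slco1a1, −0.037 for Abcc2 and 0.020 for Abcc4. Array weights gave −0.0043 for Slc22a12 and 0.042 for Abcc4. Without retained-intron transcripts the values were −0.46 for Slco1a1 and −0.037 for Abcc2. Weighting by length gave −0.072 for Slc22a12 and −0.0081 for Abcc2. Leaving out 1 mouse gave −0.039 to 0.057 for Slc22a12 and −0.084 to 0.15 for Abcc4 in Ang II vs. Control, and −0.11 to 0.040 for Slc47a1 in Ang II + QDG vs. Control. For the settings that changed the scaling, the array weights or the mice, the cause was not tested. The other settings changed sign by the transcripts or weights that entered the sum.

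Over all genes, the count called in Ang II vs. Control was 735 (612 higher and 123 lower), and it was 493 (227 higher and 266 lower) after quantile normalization and 472 (201 higher and 271 lower) after median scaling, which moved the median of all genes from 0.08 to −0.01. It was 408 with protein-coding transcripts only, 353 with the most abundant transcript and 456 in a fit of only the 10 mice compared. Leaving out 1 mouse gave 338 to 797, with 338 and 361 without Control replicates 1 and 3, and 398 and 348 without Ang II replicates 2 and 5. After QDG, 224 genes were called relative to Ang II (65 higher and 159 lower), with 97 higher and 97 lower after quantile normalization and 58 called in a fit of only those 10 mice. Leaving out 1 mouse gave 53 to 249, with 53 and 65 without Ang II replicates 2 and 5, and 57, 81, 53 and 80 without Ang II + QDG replicates 2, 3, 4 and 5. Against Control 16 were called in Ang II + QDG, with 80 when every listed transcript was summed, 62 with array weights, 6 with protein-coding transcripts only and also with the most abundant transcript, 4 in a fit of only the 10 mice compared, and 0 (without Control replicate 4) to 110 (without Control replicate 2) when 1 mouse was left out.

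No paired analysis was possible because the labels give no replicate numbers that groups could share. The low implied reads of Slco1a6-201 limit what can be said of the coding transcript.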
